A study of Mus musculus with 16 samples.

Results

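The comparison described here is the step from dividing myoblasts to isolated myotubes in 1 transgenic line of pmi28 cells, a mouse muscle cell line whose mononucleated myoblasts fuse into multinucleated myotubes. The line carries doxycycline-inducible msx2 and GFP, and no doxycycline was given to any of the libraries compared. Of the 16 RNA sequencing libraries of the series, 5 belong to the comparison: 2 of uninduced msx2 myoblasts and 3 of uninduced isolated msx2 myotubes. They were chosen by these labels alone, without regard to any measured value. Uninduced myoblasts (2 libraries) and myotubes (3 libraries) of a line with inducible GFP only were used to ask which changes differ between the lines, and the 6 doxycycline-induced libraries entered only the estimate of spread.

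Myoblasts grew in 20% fetal bovine serum. Per the labels, myotubes formed over 3 days in 10% horse serum, were collected on a mesh and were then kept for 3 days with AraC, which blocks DNA synthesis in any dividing cells left over. The medium of the uninduced myotubes on their last day is not stated. Myotubes therefore differed from myoblasts in age, serum, AraC and isolation as well as in fusion, and the contributions of these to any change below cannot be told apart. In bulk RNA, fewer cells of a type and less RNA per cell cannot be told apart either. The labels do not say whether the line was grown from 1 clone, nor whether each replicate was a culture of its own. The p-values rest on the variation among these libraries, which may be technical.

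When myoblasts lose their mitogens they leave the cell cycle for good, switch on a set of muscle transcription factors headed by MyoD family members and Mef2 proteins, fuse, and build sarcomeres, the repeating contractile units of muscle. A sarcomere holds thick filaments of myosin between thin filaments of actin that are anchored in Z-discs and spanned by titin. Contraction is started at the neuromuscular junction and passed on through a voltage sensor and a calcium release channel to the sarcoplasmic reticulum, the calcium store of the fibre. Cultured myotubes usually carry embryonic and neonatal forms of many of these proteins.

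Depth was alike in both groups: 26902203 and 28195110 counts in the myoblast libraries and 19830622 to 30867084 in the myotube libraries. Levels are CPM, counts scaled to a common library size by TMM, and are given in the order of replicate numbers. CPM takes no account of gene length, so levels are compared between libraries and not between genes. Changes are log2 of myotubes over myoblasts ± SE from edgeR's quasi-likelihood model, and a gene was called where the Benjamini-Hochberg adjusted p over all 16245 genes tested was below 0.05. Replicates differed by more than counting noise, with chi-square per degree of freedom of 24.8 between the myoblast libraries and 13.8 to 31.3 between the myotube libraries. Myotube replicate 2 stood farthest apart, with 73 of 11305 genes at least 2-fold from the mean of the other two, against 47 for replicate 1 and 4 for replicate 3. It held more RNA for actins, filamin and collagens and less for titin, nebulin and several myosins than the other myotube libraries.

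Differentiation changed most of the transcriptome. Of 16245 genes, 6636 (40.8%) were called higher in myotubes and 6328 (39.0%) lower, which makes 79.8% called in either direction. For 85.7% of genes the libraries of the 2 stages did not overlap. At least 2-fold changes were called for 4312 higher (26.5%) and 2898 lower genes (17.8%), and at least 16-fold changes for 500 higher (3.08%) and 109 lower genes (0.671%). These shares are the background for every count below. The median change of all genes was 0.08, with 90% of genes between -1.98 and 3.27. Scaling by upper quartiles or by library totals moved this median to 0.29 and 0.36 and the share of calls that were higher from 51.2% to 59.9% and 62.3%, so changes of less than about 0.3 have no settled direction.

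**Figure D1:**
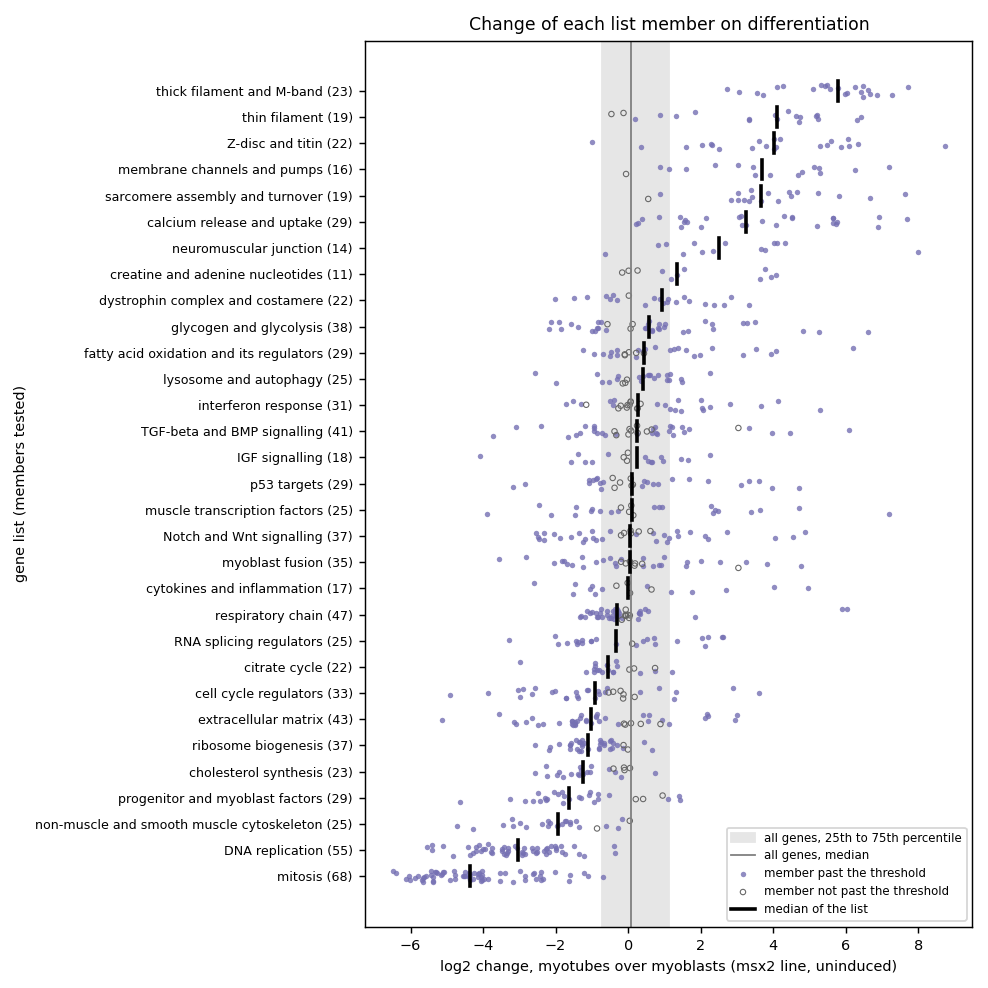
Each point is 1 gene of a list, placed by its log2 change in myotubes over myoblasts, with the number of members tested in parentheses; filled points passed the threshold, black bars are list medians, and the grey band and line are the quartiles and median of all genes. The lists run from mitosis, with a median of -4.37, to the thick filament, with a median of 5.79, and the metabolic and signalling lists straddle 0. Points of genes without a read in myoblasts show the fitted value, which is no bound.

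Of 25 listed muscle transcription factors, 11 were called higher and 10 lower, with a median of 0.09, which is near the shares of all genes (40.8% and 39.0%). Myod1, the factor that commits cells to the muscle lineage, was measured at 279.7 and 245 CPM in myoblasts and 289.8, 287 and 257 CPM in myotubes. The libraries of the 2 stages overlapped, and the change was 0.09 ± 0.08 (adjusted p = 0.321), against 0.30 with upper-quartile scaling and 0.37 with library totals, both past the threshold. Myf5, which acts beside Myod1 in dividing myoblasts, fell from 97.7 and 86.7 CPM to 7.79, 5.87 and 5.26 CPM (-3.89 ± 0.15). Myog, or myogenin, which is needed for terminal differentiation, was at 165 and 153 CPM in myoblasts and 812, 752 and 757 CPM in myotubes, a rise of 2.28 ± 0.09 (adjusted p = 7.01e-12). Every myotube library thus lay above both myoblast libraries, by more than 4 times. Myf6, the late member of the family, rose from 0.579 and 0.946 CPM to 29.1, 14.9 and 16.5 CPM and was highest in replicate 1 of the myotubes.

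Mef2 factors, which bind muscle promoters with MyoD family proteins, showed a wider range. Mef2c had the largest rise of any listed muscle factor, at 6.91 and 9.05 CPM in myoblasts and 1280.3, 1076 and 1132 CPM in myotubes (7.18 ± 0.23, adjusted p = 3.28e-12). All 3 myotube libraries were more than 100 times above either myoblast library. Mef2a rose by 2.48 ± 0.11 and Mef2d by 0.84 ± 0.10, whereas Mef2b was at 0.14 ± 0.15 and was not called. Vgll2, a cofactor of TEAD proteins in muscle, rose by 3.39 ± 0.62, and Tead4 by 2.33 ± 0.12. Among the E protein partners of the MyoD family, Tcf3, which encodes E12 and E47, fell from 294 and 269 CPM to 46.2, 55.6 and 52.1 CPM (-2.45 ± 0.08) and Tcf12, encoding HEB, by 1.03 on the log2 scale, whereas Tcf4 rose by 0.93 ± 0.09. Srf, the serum response factor, changed by -1.46 ± 0.10, and Six4, a homeodomain factor of muscle precursors, by -0.77 ± 0.07. Ankrd1, a muscle ankyrin repeat protein responsive to stretch, rose by 2.40 ± 0.15.

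**Figure D2:**
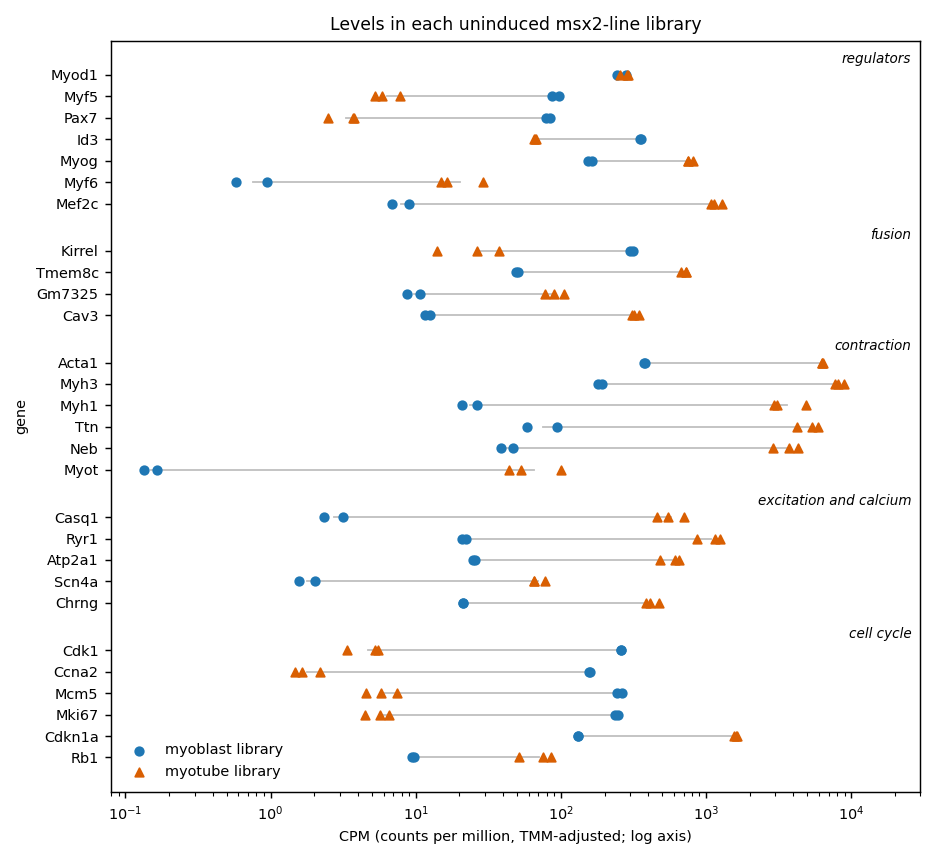
Levels of 28 genes in CPM on a log axis, with 1 circle for each of 2 myoblast libraries, 1 triangle for each of 3 myotube libraries and a grey line between the group means. Myod1 overlaps between stages, and the libraries of the 2 stages are apart for every other gene plotted.

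Genes of muscle precursors fell as a group: 23 of 29 were lower, 3 were higher and 3 were not called (median -1.62). Pax7, which marks satellite cells, the stem cells of muscle, was at 84.4 and 78.6 CPM in myoblasts and 3.69, 3.73 and 2.49 CPM in myotubes and fell by 4.64 on the log2 scale (SE 0.20, adjusted p = 4.15e-11). Id3, an inhibitor of MyoD family proteins, fell from 358 and 350.4 CPM to 64.9, 66.3 and 66.98 CPM. Sdc3, a syndecan of satellite cells, changed by -2.85 ± 0.14, and Twist2, a repressor of muscle differentiation, by -3.26 ± 0.16. Against the direction of the list, Calcr, the calcitonin receptor of quiescent satellite cells, rose by 1.42 ± 0.24 and Dach1, a transcriptional corepressor, by 1.41 ± 0.21, both from levels near 1 CPM. Id4, a relative of Id3, was also called higher (1.10 ± 0.34), but not without replicate 1 of the myoblasts (0.77).

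Of 35 myoblast fusion genes 13 were higher and 15 lower, with a median of 0.05, again near all genes. The muscle-specific membrane proteins that carry out fusion rose. Tmem8c, or myomaker, was at 51.02 and 49.3 CPM in myoblasts and 728, 733 and 676 CPM in myotubes (3.83 ± 0.10, adjusted p = 6.35e-14), and Gm7325, or myomixer, rose from 10.7 and 8.68 CPM to 89.2, 106 and 77.3 CPM. Cav3, the caveolin of muscle membranes, rose by 4.75 ± 0.12, Dysf, or dysferlin, of membrane repair, by 2.02 ± 0.08 and Ncam1, an adhesion molecule, by 1.61 ± 0.11. Some adhesion and signalling genes of the cells before fusion were lower. Kirrel, of the nephrin family, fell from 314 and 300.2 CPM to 14.1, 37.4 and 26.4 CPM (-3.55 ± 0.34), Nphs1, or nephrin, by 1.76, Dock1, a Rac activator, by 1.82, Boc, a coreceptor of promyogenic signalling, by 2.04 and Cxcl12, a chemokine, by 2.83 on the log2 scale. Jam2, Cdon and Itgb1, also adhesion genes, went the other way, by 0.92 ± 0.18, 0.84 ± 0.08 and 0.98 ± 0.07. Cdh15 (0.69), Dock5 (0.41) and Cd81 (0.41) were called higher too.

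Sarcomere genes rose almost throughout. The 64 tested genes of the thick filament, thin filament and Z-disc took 0.629% and 0.63% of all counts in the myoblast libraries and 8.55%, 7.51% and 7.79% in the myotube libraries. Of 23 thick filament and M-band genes, 23 were higher, 19 of them at least 16-fold, with a median of 5.79. Of 19 thin filament genes 17 were higher and none was lower (median 4.09), and of 22 Z-disc genes 21 were higher and 1 lower (median 4.01).

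Myosin heavy chains, the motors of the thick filament, rose in every developmental class listed. Myh3, the embryonic form, was at 181 and 193 CPM in myoblasts and 8912, 7743 and 8151 CPM in myotubes (5.47 ± 0.16, adjusted p = 2.09e-13), and Myh8, the perinatal form, at 14.4 and 20.97 CPM in myoblasts and 1874, 1159 and 1494 CPM in myotubes (6.41 ± 0.36). The adult fast forms Myh1, Myh2 and Myh4 rose by 7.27 ± 0.44, 6.86 ± 0.39 and 7.70 ± 0.56, and Myh7, the slow form, by 6.48 ± 0.50. Replicate 1 of the myotubes was higher for the adult fast forms, for example Myh4 at 1984, 1149.6 and 1211 CPM from 5.88 and 8.02 CPM, while replicate 3 was higher for Myh7, at 351, 337 and 603 CPM. These heavy chains have near-identical stretches, and how reads that match several of them were counted is not given in the sources used here, so the split between them is uncertain. Of the light chains, Mylpf, the fast regulatory chain, rose by 4.11 ± 0.10 to 4569, 4078 and 3781 CPM, Myl1, the fast essential chain, by 5.10 ± 0.15, and Myl2, of slow and ventricular muscle, by 6.62 ± 0.58 from 0.0891 and 0.0822 CPM.

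In the thin filament, Acta1, the skeletal muscle actin, was at 376 and 382 CPM in myoblasts and 6261, 6425 and 6249.7 CPM in myotubes (4.06 ± 0.12, adjusted p = 3.48e-13). Neb, or nebulin, which runs along the filament, rose by 6.42 ± 0.21, Lmod2 and Lmod3, leiomodins that start actin assembly, by 6.29 ± 0.24 and 5.17 ± 0.11, and Tnnc2, fast troponin C, by 5.24 ± 0.20. The 2 members not called were Tnni3, cardiac troponin I, at 0.599, 0.32 and 0.343 CPM in myotubes, and Tpm3, a tropomyosin of slow muscle. In the Z-disc, Myot, or myotilin, had the largest change of all the sarcomere genes, from 0.134 and 0.164 CPM to 100.1, 44.2 and 53.2 CPM (8.73 ± 0.83). Ttn, or titin, was at 58.3 and 93.5 CPM in myoblasts and 5927, 4259 and 5412 CPM in myotubes (6.10 ± 0.21). Capn3, a muscle protease bound to titin, rose by 6.34 ± 0.24 and Myoz2, which tethers calcineurin to the Z-disc, by 6.07 ± 0.16. Pdlim7, a PDZ and LIM protein, was the 1 member that fell (-0.99 ± 0.09). Of 19 genes for the assembly and turnover of sarcomeres, 18 were higher, among them Hspb7, a small heat shock protein (6.66 ± 0.21), Xirp2, an actin-binding repeat protein (7.63 ± 0.73), Klhl41, which stabilises nebulin (5.24 ± 0.23), and Unc45b, the myosin chaperone (4.48 ± 0.15).

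Promoters of these genes were searched for short sequences that muscle factors are known to bind. RefSeq promoters on GRCm38.p6, 250 bases before the start on both strands, were matched to 12799 of the 16245 genes tested, which are 12750 RefSeq genes. The E-box CAGCTG, bound by MyoD family proteins, was in 20 of 52 sarcomere promoters (38.5%) against 15.1% of all promoters, and in 7 of 17 (41.2%) of the calcium list. Another E-box, CAGGTG, was in 17 of the 52 (32.7%) and in 1 of the 17 (5.88%), against 19.2%. A MEF2 site was in 11 of the 52 (21.2%) against 2.31%, with 6 of 21 in the thick filament list, 5 of 16 in the Z-disc list and 0 of 15 in the thin filament list, and a CArG box, bound by Srf, in 7 (13.5%) against 1.44%. Matches are descriptions of the letters and not evidence of binding. Shown are Myh4 (chr11:67237610-67237770, plus strand) and Chrna1 (chr2:73580357-73580450, minus strand), members with a high level and with these letters, where capitals mark E-boxes (CAGCTG or, in Chrna1 only, once CAGGTG) or a MEF2 site:
Myh4: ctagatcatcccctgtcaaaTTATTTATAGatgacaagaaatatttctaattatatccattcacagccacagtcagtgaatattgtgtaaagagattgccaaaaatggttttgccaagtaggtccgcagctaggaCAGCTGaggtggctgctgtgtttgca
Chrna1: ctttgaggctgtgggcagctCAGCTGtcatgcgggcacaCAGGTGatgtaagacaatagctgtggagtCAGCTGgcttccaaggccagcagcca
In the Myh4 promoter the E-box lay 67 bases and the MEF2 site 182 bases before the start, and in that of Chrna1 2 E-boxes of the sequence CAGCTG lay 92 and 44 bases before it.

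The actin, filamin and intermediate filament genes of motile cells were lower. Of 25 non-muscle and smooth muscle cytoskeleton genes 23 fell and none rose (median -1.94). Actg1, a cytoplasmic actin, was at 6783 and 6823 CPM in myoblasts and 442, 873 and 565 CPM in myotubes (-3.44 ± 0.30, adjusted p = 2.40e-07), and Actb at 6217 and 6233 CPM in myoblasts and 499.6, 945 and 605 CPM in myotubes. Replicate 2 of the myotubes was the highest of the 3 for both, and still more than 6 times below either myoblast library. Flna, or filamin A, fell by 3.21, Tagln2, or transgelin 2, by 4.29, Tpm4, a non-muscle tropomyosin, by 2.98 and Lmnb1, or lamin B1, of the nuclear envelope, by 4.73 on the log2 scale. Without replicate 2 of the myotubes 24 members were lower and the median was -2.04.

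In many pairs of related genes 1 form rose as the other fell. Of 32 pairs in which both genes were tested, the first, in most pairs the more widely expressed gene, fell and the second, in most pairs the gene of muscle or other differentiated cells, rose in 20, both rose in 6, both fell in 4, and 1 or both were not called in 2. The log2 ratio of the second to the first gene was higher in every myotube library than in any myoblast library for 30 pairs. For single genes the libraries of the stages did not overlap in 85.7% of cases, and the share for other gene pairs was not computed. The pairs were written with the form of muscle second in most cases, so the direction was partly set by the choice. Chrne in both myoblast libraries and Eef1a2 in replicate 2 had no read, so these ratios have no set size there. Cofilins, which sever actin filaments, show the pattern: Cfl1 went from 1627 and 1632 CPM to 267, 369 and 301 CPM and Cfl2 from 207 and 208 CPM to 575, 496 and 493 CPM. In the pair Cap1 and Cap2, which recycle actin, the changes were -2.21 ± 0.26 and 4.62 ± 0.18. Fatty acid binding proteins Fabp5 and Fabp3 changed by -3.41 ± 0.27 and 3.94 ± 0.12, and glycogen phosphorylases Pygb and Pygm by -1.90 ± 0.10 and 4.81 ± 0.22. Of the translation elongation factor genes, Eef1a1 changed by -0.56 ± 0.05, and Eef1a2, the muscle and nerve form, went from 0.134 and 0 CPM to 6.94, 3.95 and 3.46 CPM. For talins Tln1 and Tln2, which link integrins to actin, the ratio was lower in every myotube library, as Tln2 fell by 1.51 and Tln1 by 0.42 on the log2 scale (-0.14 and not called with library totals), and for Cdkn1b and Cdkn1c the ratios overlapped.

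**Figure D3:**
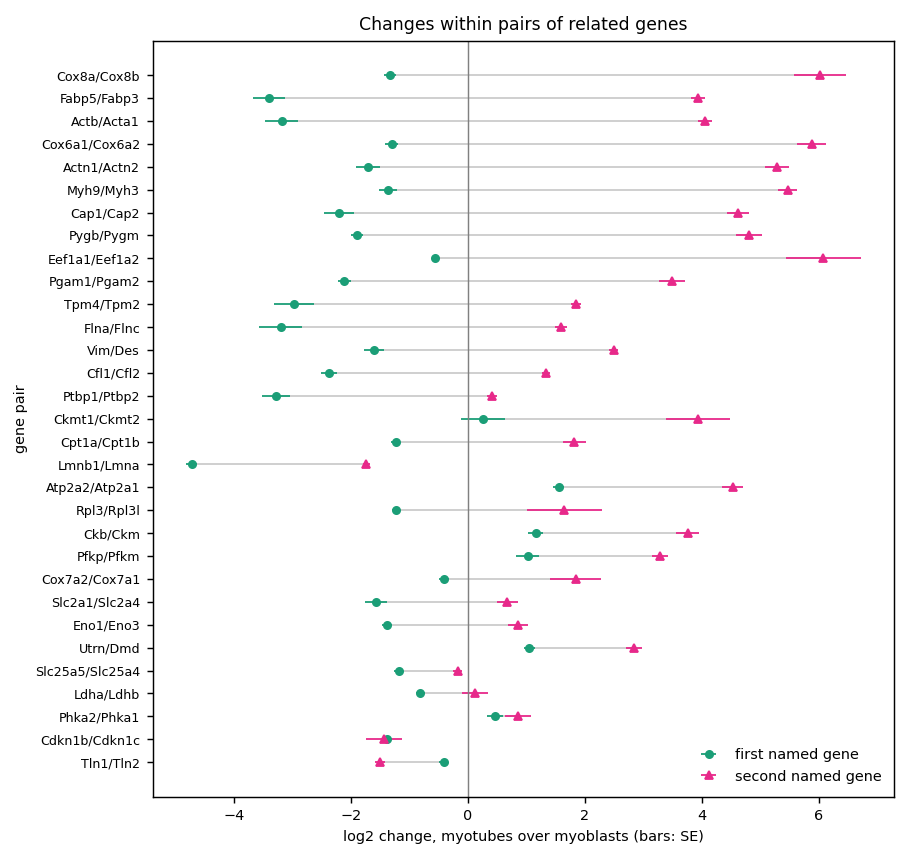
Log2 change of the first (circles) and second gene (triangles) of 31 pairs of related genes, with bars for the SE; the pair Chrng and Chrne is left out because Chrne had no read in myoblasts. Most pairs cross 0, from the first gene on the left to the second on the right, and Tln1 and Tln2 both lie below 0 with the second gene lower.

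Genes of excitation and calcium release rose without exception among those listed: 29 of 29 were higher, 13 of them at least 16-fold (median 3.25). Ryr1, the calcium release channel, was at 20.9 and 22.2 CPM in myoblasts and 1251, 866 and 1148 CPM in myotubes (5.66 ± 0.21), and Cacna1s, the voltage sensor that opens it, at 11.8 and 11.02 CPM in myoblasts and 724, 461 and 618 CPM in myotubes (5.72 ± 0.23). All myotube libraries were at least 30 times above the myoblast libraries for both. Casq1 and Casq2, the calcium-binding proteins of the store, rose by 7.69 ± 0.33 and 5.21 ± 0.09, and Atp2a1, the fast calcium pump, by 4.53 ± 0.18, against 1.55 ± 0.10 for Atp2a2, the pump of slow and non-muscle cells. Sln, or sarcolipin, an inhibitor of the pump, rose from 0.0446 and 0.0411 CPM to 8.19, 2.49 and 6.601 CPM, with the myotube libraries spread more than 3-fold.

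Of 16 membrane channels and pumps 15 were higher (median 3.70). Scn4a, the adult muscle sodium channel, rose from 1.56 and 2.01 CPM to 77.4, 65.7 and 64.8 CPM. Scn3b, an accessory subunit, rose by 7.19 ± 0.36 and Abcc9, a subunit of ATP-sensitive potassium channels, by 6.25 ± 0.46. At the neuromuscular junction 13 of 14 genes were higher (median 2.49). The acetylcholine receptor subunits Chrna1, Chrnb1, Chrnd and Chrng rose by 2.04 ± 0.10, 1.83 ± 0.13, 4.11 ± 0.15 and 4.33 ± 0.13. Chrne, the subunit that replaces Chrng in innervated muscle, had no read in either myoblast library and was at 1.597, 1.32 and 0.996 CPM in myotubes, at least 20.3-fold higher if the myoblast libraries are given 3 counts in all, the floor used for such genes. Musk, the kinase that organises the junction, rose by 2.32 ± 0.13, Dok7, its activator, by 2.66 ± 0.11, Ache, which breaks down acetylcholine, by 3.78 ± 0.34 and Erbb3, a neuregulin receptor, by 3.67 ± 0.13.

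Of 22 genes of the dystrophin complex and costamere, which tie the sarcomere to the membrane and matrix, 14 were higher and 7 lower (median 0.92). Dmd, or dystrophin, rose from 23.8 and 25.3 CPM to 194, 154 and 179 CPM (2.84 ± 0.13), Utrn, its homologue utrophin, by 1.05 ± 0.09, Sgca, a sarcoglycan found in striated muscle, by 3.33 ± 0.14 and Itga7, the laminin receptor of muscle, by 2.12 ± 0.09. Sgce, the sarcoglycan of other tissues, fell by 2.02 on the log2 scale.

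Genes of dividing cells fell without exception among those listed. Of 55 DNA replication genes 55 were lower (median -3.05), and of 68 mitosis genes 68 were lower, 46 of them at least 16-fold (median -4.37). Summed over the list, mitosis genes held 7747 and 7517 CPM in myoblasts and 648, 670 and 620 CPM in myotubes. Ccna2, or cyclin A2, was at 157 and 159.9 CPM in myoblasts and 1.65, 2.204 and 1.46 CPM in myotubes (-6.48 ± 0.35, adjusted p = 2.40e-09), and Cdk1, its kinase, at 258 and 258 CPM in myoblasts and 5.49, 5.26 and 3.36 CPM in myotubes (-5.80 ± 0.47). The myotube libraries lay at least 40 times below the myoblast libraries for both. Cdc20, an activator of the anaphase complex, fell from 363 and 329.9 CPM to 5.19, 7.32 and 5.08 CPM, Aurkb, the Aurora B kinase, by 6.41 and Top2a, topoisomerase II alpha, by 5.11 on the log2 scale. Among replication genes, Mcm5, of the replicative helicase, fell from 264 and 243 CPM to 5.79, 7.43 and 4.55 CPM, Uhrf1, which maintains DNA methylation, by 5.54 and Lig1, DNA ligase 1, by 4.42. Rrm1 and Rrm2, the subunits of ribonucleotide reductase, kept more, at 177, 148 and 144 CPM from 633 and 611 CPM and at 124, 101 and 128 CPM from 412 and 376 CPM. Fam64a, which was not on a list, had the largest fall of all genes that met the rule for naming, from 78.2 and 72.4 CPM to 0.449, 0.64 and 0.374 CPM (-7.26 ± 0.37).

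Promoters of these genes carried other letters. CCAAT, bound by NF-Y, was in 41 of 57 mitosis promoters (71.9%) and 28 of 43 replication promoters (65.1%) against 39.8% of all. TTTGAA, the cell cycle homology region bound by the DREAM and MuvB complexes, was in 21 mitosis promoters (36.8%) against 13.8%. The E2F-type sequence TTCCCGC was in 11 replication promoters (25.6%) but only 1 mitosis promoter (1.75%), against 7.23%. Another E2F-type sequence, TTGGCGC, was in 7 mitosis (12.3%) and 4 replication promoters (9.30%) against 3.73%. Shown are Cdc20 (chr4:118437344-118437416, minus strand), Top2a (chr11:99024190-99024436, minus strand), Rrm1 (chr7:102441608-102441654, plus strand) and Mcm5 (chr8:75109325-75109386, plus strand). They were picked because they hold the letters marked and, among such list members, for high levels in myoblasts, so the choice fixed these matches. Capitals mark CCAAT and TTTGAA in Cdc20 and Top2a, TTCCCGC in Rrm1 and TTGGCGC in Mcm5, on either strand, and other matches are not marked:
Cdc20: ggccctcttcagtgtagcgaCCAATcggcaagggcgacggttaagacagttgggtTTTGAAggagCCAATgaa
Top2a: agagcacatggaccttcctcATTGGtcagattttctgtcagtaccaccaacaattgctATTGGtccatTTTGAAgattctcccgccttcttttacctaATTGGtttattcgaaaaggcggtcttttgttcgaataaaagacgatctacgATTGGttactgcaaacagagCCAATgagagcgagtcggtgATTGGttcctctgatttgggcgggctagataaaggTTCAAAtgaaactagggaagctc
Rrm1: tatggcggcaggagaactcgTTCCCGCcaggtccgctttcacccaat
Mcm5: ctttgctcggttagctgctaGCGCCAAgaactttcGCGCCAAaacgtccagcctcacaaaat
The Cdc20 promoter held TTTGAA 18 bases before the start between 2 CCAAT sequences at 53 and 8 bases. In Top2a, 6 CCAAT sequences on either strand lay within 227 bases of the start.

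Of 33 cell cycle regulators, 21 were lower and 6 higher. Cdkn1a, the inhibitor p21, was at 131 and 132 CPM in myoblasts and 1639, 1617 and 1554 CPM in myotubes (3.61 ± 0.08, adjusted p = 1.25e-14), and Rb1, the retinoblastoma protein, at 9.67 and 9.42 CPM in myoblasts and 85.8, 51.1 and 75.1 CPM in myotubes (2.89 ± 0.22). Ccnd3, the D cyclin that rises in differentiating muscle, rose by 1.30 ± 0.10, whereas Ccnd1 fell by 1.40 and Cdk4, the partner of the D cyclins, from 568 and 521 CPM to 81.95, 99.7 and 94.97 CPM. Of the other inhibitors of cyclin-dependent kinases, Cdkn1b changed by -1.39 ± 0.08, Cdkn1c, or p57, by -1.44 ± 0.31, Cdkn2c by -3.04 ± 0.16 and Cdkn2d by -1.14 ± 0.21, and Cdkn2a (-0.41 ± 0.19) and Cdkn2b (-0.14 ± 0.10) were not called. E2f1 and E2f7 fell by 2.99 and 4.90 on the log2 scale and E2f2 rose by 1.27 ± 0.12. Of 29 listed targets of p53, which also controls Cdkn1a, 13 were higher and 10 lower (median 0.09). Eda2r, a receptor of the TNF receptor family, rose from 16 and 16.5 CPM to 512, 371 and 379 CPM (4.69 ± 0.20), Gadd45a, a growth arrest gene, by 3.97 ± 0.13, and Pmaip1, or Noxa, by 3.10 ± 0.20. The 2 list members with the largest falls, Ckap2 (-3.18 ± 0.33) and Gtse1 (-2.86 ± 0.25), are also genes of mitosis. Targets outside the mitosis list were called lower as well, among them Bax (-1.08), Rps27l (-1.07) and Ddit4 (-0.97).

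Of 37 ribosome biogenesis genes 33 were lower and 2 higher (median -1.10), for example Fbl, or fibrillarin, from 169 and 151 CPM to 33.99, 42.3 and 32.3 CPM and Tcof1, or treacle, with -2.58 ± 0.08. Cholesterol synthesis genes were lower in 18 of 23 cases (median -1.25), with Lss, lanosterol synthase, at -2.27 ± 0.10 and Insig1, a sterol sensor, at -2.24 ± 0.15. Among 25 splicing regulators 11 were higher and 13 lower. Ptbp1, a repressor of muscle and neural exons, fell from 171 and 156 CPM to 11.2, 21.4 and 17.2 CPM (-3.29 ± 0.24), and the SR protein genes Srsf1, Srsf2 and Srsf7 by 1.69, 2.03 and 1.93 on the log2 scale. Rbfox1, Rbm24, Rbm38 and Fxr1, which act on muscle transcripts, rose by 2.61 ± 0.14, 2.58 ± 0.12, 2.19 ± 0.10 and 2.03 ± 0.10.

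Energy metabolism did not move as a block. Of 11 genes of creatine and adenine nucleotides 8 were higher and none lower, led by Ampd1, AMP deaminase 1 (4.08 ± 0.33), Ckmt2, the mitochondrial creatine kinase of striated muscle (3.94 ± 0.55), and Ckm, the muscle creatine kinase, at 26.2 and 23.9 CPM in myoblasts and 329.6, 296 and 393 CPM in myotubes (3.76 ± 0.20). Of 38 genes of glycogen and glycolysis 22 were higher and 13 lower (median 0.57). Glycogen genes of muscle rose, with Pygm, muscle glycogen phosphorylase, at 9.36 and 12.1 CPM in myoblasts and 356, 264 and 288 CPM in myotubes, and Ppp1r3a and Ppp1r3c, which target a phosphatase to glycogen, at 5.25 ± 0.45 and 6.62 ± 0.37. Of the glycolytic enzymes, Pfkm, the muscle phosphofructokinase, and Pgam2, the muscle phosphoglycerate mutase, rose by 3.28 ± 0.14 and 3.49 ± 0.22, and Pfkl and Pgam1, isoforms of other tissues, fell by 1.86 and 2.12 on the log2 scale. Pfkp, the platelet form of phosphofructokinase, rose as well, by 1.02 ± 0.20.

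Of 29 fatty acid oxidation genes 17 were higher and 7 lower (median 0.43), with Cd36, the fatty acid transporter, from 0.802 and 0.946 CPM to 65.9, 55.04 and 72.7 CPM (6.19 ± 0.28) and Mb, or myoglobin, from 29.2 and 27.1 CPM to 559, 420.4 and 435 CPM. Ppargc1a, a coactivator that promotes mitochondrial growth, rose by 2.30 ± 0.32 to 3.64, 3.41 and 3.14 CPM. Summed over their lists, the genes of the mitochondrial core nevertheless took a smaller share of all counts in myotubes. The citrate cycle list took 0.367% and 0.364% in myoblasts and 0.301%, 0.299% and 0.283% in myotubes. The respiratory chain list took 0.862% and 0.887% in myoblasts and 0.73%, 0.783% and 0.683% in myotubes. In the citrate cycle 16 of 22 fell and 3 rose (median -0.57), with Idh2, isocitrate dehydrogenase 2, from 352 and 319 CPM to 45.6, 37.9 and 42.97 CPM and Sucla2, a succinate-CoA ligase subunit, going the other way (1.22 ± 0.10). In the respiratory chain 29 of 47 fell and 10 rose (median -0.30), but the number that fell was 18 with upper-quartile scaling and 16 with library totals. With library totals 4918 of all 16245 genes were lower, and a median of this size has no settled direction. The exceptions in size were the muscle subunits of cytochrome c oxidase, Cox6a2 from 2.01 and 1.56 CPM to 131, 98.3 and 86.7 CPM (5.88 ± 0.25) and Cox8b by 6.02 ± 0.44, beside -1.31 ± 0.11 for Cox6a1 and -1.34 ± 0.10 for Cox8a. Of 25 lysosome and autophagy genes 15 were higher and 7 lower, with Ctsd, or cathepsin D, from 339.5 and 303 CPM to 1604, 1721 and 1300.0 CPM.

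Matrix genes fell in 28 of 43 cases and rose in 10 (median -1.02). Fn1, or fibronectin, was at 5273 and 4944 CPM in myoblasts and 1821, 2487 and 2588 CPM in myotubes (-1.15 ± 0.20), and Col3a1, a fibrillar collagen, at 2078 and 2068 CPM in myoblasts and 214, 514 and 383 CPM in myotubes (-2.48 ± 0.40). Replicate 2 of the myotubes was more than 2 times replicate 1 for Col3a1, and the libraries of the stages did not overlap. Fmod, or fibromodulin, fell by 5.14, Col6a1 and Col6a2, of the microfibrils around muscle fibres, by 2.82 and 3.14, and Efemp2, of elastic fibres, by 3.09 on the log2 scale. Those that rose included Dcn, or decorin, by 2.96 ± 0.55 and Col15a1 by 2.12 ± 0.36, both from under 1 CPM. Without replicate 2 of the myotubes 27 members were lower, with a median of -1.16.

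**Figure D4:**
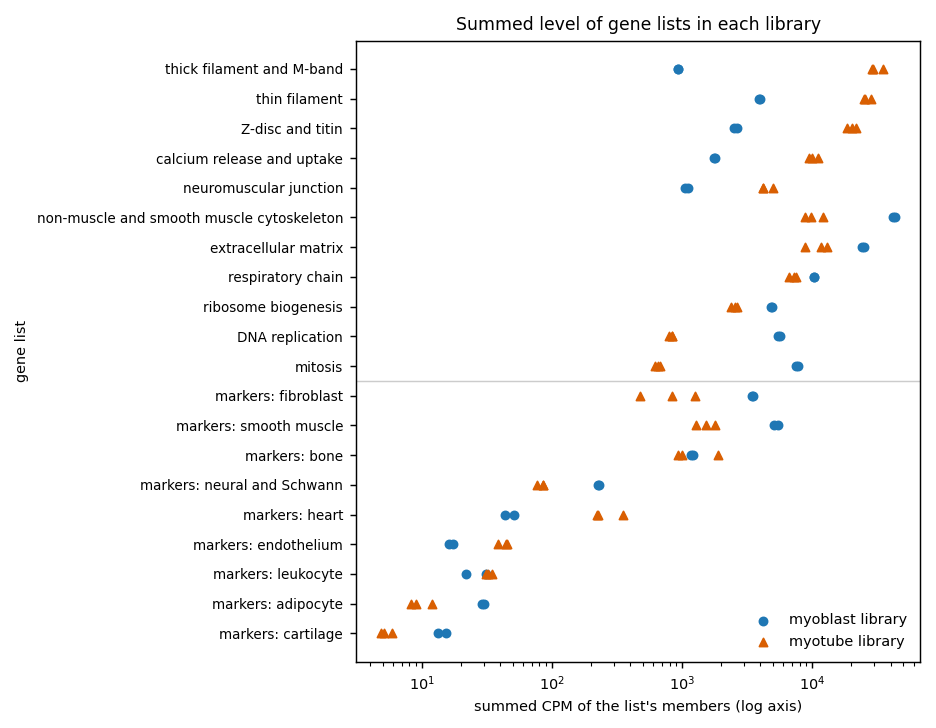
CPM summed over the members of a list in each library, on a log axis, with circles for 2 myoblast and triangles for 3 myotube libraries; lists below the line are markers of other cell types. Contractile and calcium lists lie higher in myotubes, and cytoskeleton, matrix, replication and mitosis lists lower, with no overlap. The summed fibroblast, smooth muscle and neural markers lie lower in myotubes, though of 10 fibroblast markers 4 were called higher and 4 lower. Summed heart markers lie higher, and leukocyte, endothelium, adipocyte and cartilage markers stay below 50 summed CPM.

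Of 41 TGF-beta and BMP genes 17 were higher and 14 lower (median 0.25), shares not far from those of all genes. Fst, or follistatin, which binds activins and myostatin, was at 13.7 and 13.9 CPM in myoblasts and 250.4, 167 and 226 CPM in myotubes (3.96 ± 0.29, adjusted p = 3.76e-08), and the BMP antagonists Chrd, or chordin, and Nog, or noggin, rose from 2.14 and 2.51 CPM to 57.3, 45.8 and 51.1 CPM and from 2.09 and 2.51 CPM to 28.7, 18.6 and 22.4 CPM. All myotube libraries lay above the myoblast libraries for these antagonists, by more than 7 times. Mstn, or myostatin, was under 1 CPM in all 5 libraries. Of the ligands, Tgfb2 and Tgfb3 rose by 1.23 ± 0.10 and 1.53 ± 0.08 and Tgfb1 fell by 0.95. Among the intracellular inhibitors Smad6 and Smad7 fell by 1.66 and 0.93 on the log2 scale, and Smad9, a BMP effector, by 2.41. Fstl1 and Ltbp4, both secreted, fell by 3.08 and 3.73.

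In IGF signalling 9 of 18 genes were higher and 6 lower. Igf2, the growth factor made by differentiating myoblasts, was at 528 and 513 CPM in myoblasts and 2468, 2318 and 2704 CPM in myotubes (2.26 ± 0.16), and H19, the noncoding RNA of the same imprinted locus, at 6660.0 and 6665 CPM in myoblasts and 10262, 9822 and 8884 CPM in myotubes (0.54 ± 0.10). Akt2 rose by 0.90 ± 0.11 and Akt1 fell by 1.19 on the log2 scale. Igfbp2, a binding protein, fell from 156 and 140.0 CPM to 7.09, 9.21 and 9.59 CPM, and Igfbp7 was called lower too. The binding proteins Igfbp3, Igfbp5 and Igfbp6 were called higher, by 1.46, 0.96 and 0.66. Of 37 Notch and Wnt genes 15 were higher and 16 lower, close to the background. Notch3 and the ligand Jag1 fell by 2.50 and 2.04, and Heyl, a Notch target, from 35.1 and 31.9 CPM to 5.34, 5.87 and 6.01 CPM. Hes6, an inhibitor of Hes1 that promotes differentiation, rose by 2.73 ± 0.11. Dll4, a Notch ligand, was among the largest rises of the list. In the Wnt pathway Axin2, a target and feedback inhibitor, rose from 0.668 and 0.411 CPM to 16.97, 14.01 and 16.97 CPM (4.89 ± 0.21), with the ligands Wnt10a and Wnt11 at 4.54 ± 0.22 and 2.10 ± 0.19 and the inhibitor Wif1 at 4.04 ± 0.35. The Wnt genes Fzd4, Tcf7l2 and Sfrp2 went the other way and were among the largest falls of the list.

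Interferon response genes were higher in 14 of 31 cases and lower in 6 (median 0.26), mostly at levels under 2 CPM, and 4 were higher when genes under 5 CPM were left out. Among 17 cytokine and inflammation genes 6 were higher and 7 lower. Summed over this list, the mean level was 1252 CPM in myoblasts and 600.9 CPM in myotubes. Ptgs2 fell from 424 and 399 CPM to 159, 207 and 231 CPM. Lif, a cytokine of the interleukin 6 family made by muscle, rose from 2.76 and 1.81 CPM to 37.98, 40.4 and 31.8 CPM (4.01 ± 0.30), and Il1b by 4.96 ± 0.44 to 5.59, 8.99 and 7.598 CPM.

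Several of the largest rises were in genes better known from other tissues and without a read in myoblasts. Serpinb7, a protease inhibitor of skin, was at 28.05, 11.3 and 19.2 CPM in myotubes, at least 304-fold above the floor of 3 counts, Hrnr, or hornerin, of the epidermis, at 19.3, 6.76 and 15.9 CPM (at least 218-fold) and Ptgds, prostaglandin D synthase, at 5.99, 7.79 and 5.26 CPM (at least 98.9-fold). Hephl1, a ferroxidase homologue, reached 164, 143 and 149 CPM from 0.267 and 0.658 CPM (8.32 ± 0.39). By CPM gained rather than by fold, the list was led by Myh3, Acta1 and Myo3a, the last an unconventional myosin of sensory hair cells, counted at 4638 and 5204 CPM in myoblasts and 11654, 10668 and 9321 CPM in myotubes. Strand use in counting is not given in the sources used here, so overlapping and antisense genes cannot be resolved. This holds for Myo3a and for 9330111N05Rik, which moved from 4781 and 4823 CPM to 323, 634 and 411 CPM, in step with Actg1.

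Markers checked the labels. All 12 myotube markers were higher in myotubes, and of 9 myoblast markers 5 were lower (Pax7, Myf5, Mki67, Top2a and Ccnb1), 3 higher (Cdh15, or M-cadherin, at 0.69 ± 0.12, Des and Itga7) and Myod1 not called. The summed level of the myoblast markers, mostly Des, was 2382 CPM in myoblasts and 6206 CPM in myotubes on average. Markers of other cell types varied. Summed over their lists, endothelial markers were at 16.2 to 17.2 CPM in myoblasts and 38.3 to 45.1 in myotubes (6 of 8 called higher), leukocyte markers at 22.01 to 31.1 CPM and 31.3 to 34.4 (4 of 8 higher), adipocyte markers at 29.2 to 30.2 and 8.19 to 12.1 (1 of 5 higher, 2 lower) and cartilage markers at 13.4 to 15.3 and 4.89 to 5.89 (2 of 5 higher, 1 lower). Neural markers were at 225 to 228 and 77.1 to 85.8 CPM, nearly all of it Tubb3, with 4 of 6 higher and 1 lower, and heart markers at 43.4 to 50.7 and 223 to 354, where Myh6 gave most. Fibroblast markers went from 3432 and 3494 CPM to between 472 and 1261 CPM (4 of 10 higher, 4 lower), mostly through collagens, while Dcn was under 2 CPM, and Tcf21 was at 0 counts in all 5 libraries. Their median change was -0.09, and -0.55 without replicate 2 of the myotubes. Smooth muscle markers went from 5089 and 5462 CPM to between 1275 and 1795 CPM (1 of 9 higher, 5 lower), mostly through Acta2 and Tagln, and Myh11 was under 13 CPM throughout. Bone markers were at 1172 to 1223 and 922 to 1897 CPM, mostly Spp1, and overlapped. The part of other cells in the changes of matrix and cytoskeleton was not tested.

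The same step in the line with inducible GFP only went nearly the same way. Of the 7210 genes called and at least 2-fold changed in the msx2 line, 6806 (94.4%) were called in the same direction there, and the changes had Pearson's r of 0.94 across genes, which are not independent replicates. The difference between the lines was itself called for 1345 genes (8.28%), 651 above 0 (4.01%) and 694 below (4.27%). Same-numbered myotube libraries of the 2 lines deviated together, and with the replicate number as a block the difference was called for 2264 genes. The count was 454 without replicate 1 of the msx2 myoblasts, and 674 and 439 without replicate 1 or 2 of the GFP-line myoblasts. With library totals 332 differences lay below 0 and 1071 above. The GFP-line myoblast libraries were unusually alike, with chi-square per degree of freedom of 1.95.

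The sarcomere and calcium genes showed the difference in 1 direction. In the msx2 line the rise was called smaller for 10 of 23 thick filament genes, 11 of 19 thin filament genes, 10 of 22 Z-disc genes and 14 of 29 calcium genes, and larger for none of these, against 4.27% below and 4.01% above 0 over all genes. With the block these were 12, 13, 13 and 15 genes, and with 1 library of either line left out at least 7, 9, 5 and 9, the counts without replicate 2 of the GFP-line myoblasts, and none was larger in any of these settings. List medians were 5.79 in the msx2 line and 7.23 in the GFP line for the thick filament and 4.09 and 5.79 for the thin filament. The levels of many muscle genes differed in the myoblasts. Myog was at 165 and 153 CPM in msx2 myoblasts and 43.7 and 47.0 CPM in GFP-line myoblasts, but at 752 to 812 and 711 to 797 CPM in the myotubes of the 2 lines. The difference of its changes was -1.78 ± 0.12 (adjusted p = 7.98e-07). Ckm was at 26.2 and 23.9 CPM against 5.83 and 6.89 CPM in myoblasts and overlapped between the lines in myotubes, a difference of -2.19 ± 0.27 (adjusted p = 0.000309). Other muscle genes had no called difference: Ttn (adjusted p = 0.269), Neb (0.756), Mef2c (0.348) and Myh8 (0.129). Ttn was at 58.3 and 93.5 CPM in msx2 myoblasts and 71.4 and 71.6 CPM in GFP-line myoblasts. Ankrd1 was lower in msx2 myoblasts, at 324 and 340 CPM against 414 and 441 CPM, with a called difference of 0.80 ± 0.20.

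Over lists, the median log2 ratio of the msx2 to the GFP line was 1.19 in myoblasts and -0.09 in myotubes for the thick filament, 1.10 and -0.09 for the thin filament and 0.51 and -0.11 for calcium genes, beside 0.08 and 0.00 for all genes. For replication and mitosis genes it was 0.11 and -0.01 in myoblasts and -0.09 and -0.19 in myotubes, with a called difference for 1 of 55 and 3 of 68. Msx2 itself, the gene the line can induce, was at 16.8 and 16.4 CPM in myoblasts and 12.1, 15.9 and 13.2 CPM in myotubes without doxycycline (-0.27 ± 0.11, adjusted p = 0.0341, not called when either myoblast library or myotube replicate 1 or 3 was left out, and 0.02 with library totals), and in GFP-line libraries at 1.28 to 1.59 CPM in myoblasts and 1.03 to 1.18 CPM in myotubes. Its part in those muscle genes that were higher in msx2 myoblasts was not tested, and the 2 lines also differ in whatever else separates independent transgenic lines. Heyl was at 35.1 and 31.9 CPM in msx2 myoblasts against 6.95 and 6.70 CPM in GFP-line myoblasts and at 5.34 to 6.86 CPM in the myotubes of both, so its fall was called in the msx2 line and not in the GFP line (-0.12 ± 0.10), with a called difference of -2.41 ± 0.13 (adjusted p = 1.07e-07).

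**Figure D5:**
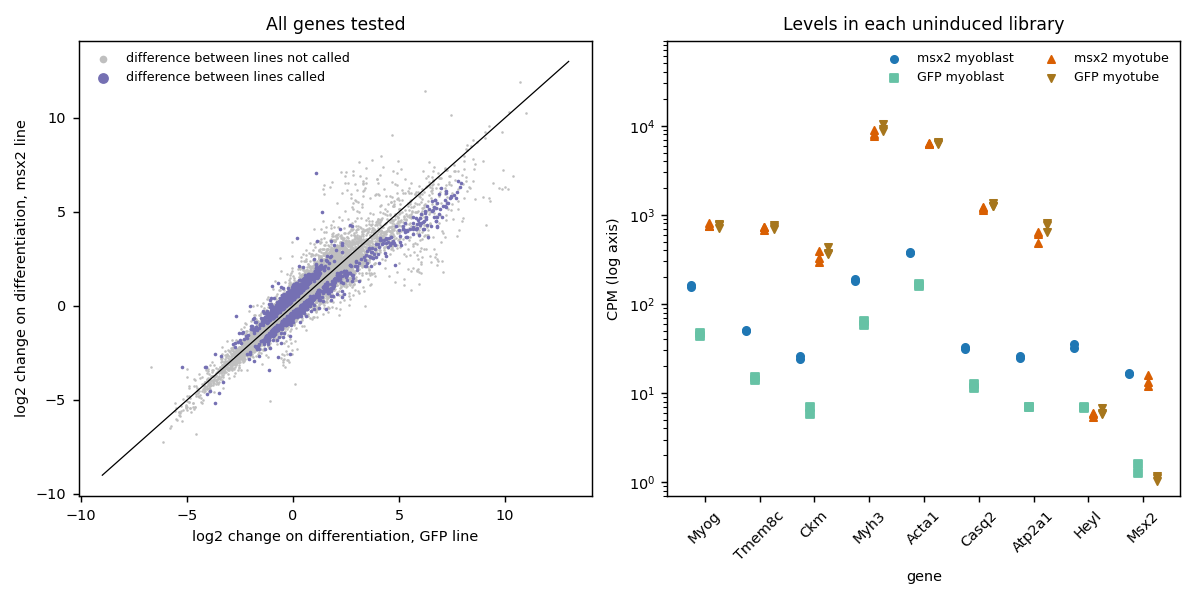
Left, log2 change of each of 16245 genes in the GFP line (x) and in the msx2 line (y), with the line of equal change and genes with a called difference in purple. Right, CPM on a log axis in each uninduced library of both lines: for the 7 muscle genes from Myog to Atp2a1, msx2 myoblasts lie above GFP-line myoblasts while the myotubes of the 2 lines lie close together. All 7 are genes with a called difference, and Ttn, Neb, Mef2c and Myh8, without one, are not plotted.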

How the data were processed

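The authors deposited 1 table of raw read counts per gene for 16 libraries. Per the submitters' processing notes, the build was mm9 and the tools were edgeR 3.6.8, SAMtools 0.1.19 and TopHat2 2.0.11. The sources used here give no counting tool, annotation or use of strand, and reads of the transgene cannot be separated from those of endogenous Msx2. Of 19866 entries, 67 without a symbol, with 0.0601% to 0.0878% of the counts of the 5 libraries compared, were left out. Libraries held 19830622 to 30867084 counts. Genes passing filterByExpr (minimum count 10) were TMM-scaled and tested with edgeR 4.0.16 (robust quasi-likelihood, 1 coefficient per group, all 16 libraries) in R 4.3.3, with Benjamini-Hochberg adjustment over 16245 genes. The test was checked on simulated data. Deviations from group means correlated between same-numbered msx2 and GFP-line myotubes (0.177, 0.274 and 0.288), which pairs these, and not between msx2 myoblasts and myotubes (-0.01 and 0.005). An exact permutation test of 3 against 2 libraries cannot go below p = 0.1 (two-sided).

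Named genes were the 12 largest rises and falls above 2 CPM, the 8 largest CPM gains and losses, the largest, most abundant and opposing members of 31 lists, all regulators, pairs and markers, the 6 largest line differences each way, and Msx2. Rises and falls were ranked over called genes whose libraries of the 2 stages did not overlap. That ranking and the one of line differences left out provisional symbols, such as Gm and Rik names. Some genes that meet this rule are not reported here. Other genes are named in passing for a reason given there. Members and lists were chosen with earlier results of these data known. Alternatives were other scalings and filters, the 5 libraries alone, the replicate block, DESeq2 1.42.0, a test against a 2-fold change and leaving out each library.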

Additional observations from a re-analysis of the deposited data

Results flagged for a closer look

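For 10 genes the change with differentiation differed between the msx2 and GFP lines by edgeR's interaction test. They were taken from the 6 largest called differences in each direction under the rule for naming. Values are in log2 units of msx2 minus GFP line. Above 0 were Plac8 at 2.16 ± 0.39 (adjusted p = 0.00299), Col2a1, the cartilage collagen, at 1.99 ± 0.52 (adjusted p = 0.0311), Ifi205 at 1.97 ± 0.55 (adjusted p = 0.0399), Vmn2r55 at 1.87 ± 0.55 (adjusted p = 0.0463) and Sbsn at 1.63 ± 0.34 (adjusted p = 0.00888). Below 0 were Chi3l1 at -2.68 ± 0.76 (adjusted p = 0.038), Mfap4 at -2.64 ± 0.59 (adjusted p = 0.0109), Dhrs7c, of the sarcoplasmic reticulum, at -2.54 ± 0.61 (adjusted p = 0.0197), Heyl at -2.41 ± 0.13 (adjusted p = 1.07e-07) and Syt8 at -2.29 ± 0.65 (adjusted p = 0.0373).

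Most of these genes were low in myoblasts. Dhrs7c was at 1.16 and 0.740 CPM in msx2 myoblasts and 0.233 and 0.502 CPM in GFP-line myoblasts, and at 16.4 to 19.7 and 33.4 to 47.3 CPM in myotubes. Col2a1 fell in both lines, from 13.2 and 10.8 CPM in msx2 myoblasts and from 32.1 and 30.3 CPM in GFP-line myoblasts. Plac8 was at 0.980 and 1.27 CPM in msx2 myoblasts and 0.499 to 0.995 CPM in their myotubes, which overlap, and at 2.24 and 2.42 CPM falling to 0.353 to 0.369 CPM in the GFP line. Sbsn rose in both lines, to 21.4 to 34.6 CPM in msx2 myotubes and 16.3 to 21.6 CPM in GFP-line myotubes.

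Plac8 and Heyl kept the call without any single library of the 2 lines. Sbsn lost it without replicate 1 of the GFP-line myoblasts (adjusted p = 0.0593), Mfap4 without that library (0.0576), replicate 2 of the GFP-line myoblasts (0.0745) or replicate 1 of the msx2 myoblasts (0.0731), and Dhrs7c without those same 3 libraries (0.106, 0.0514 and 0.172). Col2a1, Ifi205, Vmn2r55, Chi3l1 and Syt8 lost it without any of several libraries, with adjusted p up to 0.106, 0.138, 0.265, 0.155 and 0.191. With library totals Chi3l1 (0.0529) and Syt8 (0.0557) lost it too, as did Vmn2r55 with no filter on low counts (0.0551).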

How the results depend on the processing

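With 2 and 3 libraries a group, genes of few counts are the least precise. The counts of genes higher and lower were within 1.5 times the reported ones under every alternative run except a test against a 2-fold change, which called 3133 higher and 2219 lower genes and 15 differences between the lines; lists then had 9 (fusion), 8 (dystrophin), 11 (glycogen), 11 (fatty acid), 2 (citrate), 3 (respiratory), 13 (cell cycle), 8 (p53), 17 (ribosome), 14 (matrix), 7 (TGF-beta), 2 (IGF), 9 (Notch and Wnt), 7 (interferon), 1 (cytokine) and 3 (lysosome) members in their leading direction, as fewer small changes can pass. A filter of 5 CPM left 2734 genes at least 2-fold higher, 4 interferon genes higher and 19 respiratory genes lower, against 18 with upper-quartile scaling and 16 with library totals. Leaving out each library in turn gave 5934 to 6481 higher, 5946 to 6318 lower, 4013 to 4268 at least 2-fold higher and 2800 to 3092 lower genes, and, with the GFP-line libraries added after seeing the data, 439 to 1642 differences between the lines. The replicate block gave 6743 higher and 6453 lower genes and 2264 differences between the lines; it moved the counts of genes higher and lower by less than 1.5 times, and msx2 myoblasts and myotubes of 1 number share only that number. DESeq2 called 6399 higher, 6317 lower and 1876 differences. With 5 CPM the medians of adipocyte, neural and bone markers turned to -1.10, -0.53 and -0.35, and that of bone ran from -0.296 (without myoblast replicate 1) to 0.203 with 1 library left out, at -0.198 without myotube replicate 2. Signs turned with upper-quartile scaling, library totals and 5 CPM for Acadl (0.12, 0.18 and 0.12), Bop1 (0.080, 0.143 and 0.076) and Slc25a4 (0.039, 0.10 and 0.035), and with library totals for Msx2 (0.015). Of the calls, 12663 were kept by DESeq2, 11863 with upper-quartile scaling, 11554 with library totals (1 other turned), 5352 by the test against a 2-fold change and 11685 to 12498 without 1 library. The cause of these shifts was not tested.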
